A study of Mus musculus with 16 samples.

Results

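The comparison was that of the ES fraction with the G1 fraction in mouse embryonic stem cells depleted of FOXD3, a forkhead transcription factor. It took 4 of the 16 ATAC-seq libraries of the study, 2 of 4HT ES and 2 of 4HT G1, which were chosen by their treatment and fraction labels. Cells of the genotype FOXD3-iKO were grown in L2i medium and exposed for 24 h either to tamoxifen (4HT), which induced the depletion, or to ethanol (EtOH), the control. All groups thus shared the genotype, the medium and the exposure time. Cells were stained with DAPI and sorted on DNA content into G1, ES, LS and G2, and the abbreviations ES and LS are not spelled out in the labels. Neither the removed part of Foxd3, nor the Cre, nor whether the line is 1 clone, is stated in the labels.

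ATAC-seq maps open chromatin, because a transposase inserts adaptors where DNA is not wrapped in nucleosomes. Forkhead factors such as FOXD3 can bind nucleosomal DNA, and in embryonic stem cells FOXD3 acts at enhancers of pluripotency and lineage genes. During S phase the genome is copied in a fixed order, in which gene-rich open domains come early and gene-poor domains late. Cells sorted on DNA content differ therefore in how many copies of a locus they hold. Copies of DNA per cell and accessibility per copy cannot be told apart in these data.

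The values were the coverage of 127646 open regions and of 38053 distinct 5000 bp windows, each placed around a transcription start site (TSS) of mm10. Each group is 1 column of pooled coverage, so no value below has an SD. A level is given as a multiple of the worth of 1 read in its column, as a mean over the covered bases only, and an interval without a read has no value. The implied depth was 6.78 M reads in 4HT G1, the shallowest of the 8 columns, and 9.75 M in 4HT ES. In the controls the order was the other way, with 9.96 M in EtOH G1 and 8.38 M in EtOH ES. In 4HT G1 67.2% of the regions had a read, against 75.9% in 4HT ES, and 34.5% and 31.8% stood at a level of exactly 1. That level is a depth of 1 read wherever covered, and several reads that do not overlap give it too. Differences are ES minus G1 on the log2 scale of the levels, centred across the 8 columns, so that the median of all tested windows is 0.00. The labelled cell type was checked on 9 markers of embryonic stem cells (Pou5f1, Sox2 and Nanog among them), which had a median level of 1.46 in 4HT G1 and 2.05 in 4HT ES. The 8 fibroblast markers with a window had medians of 1.18 and 1.07, and the 6 neural crest markers 1.03 and 1.29. Over all windows with a read the medians were 1.18 and 1.27. The marker ranges overlapped. In 4HT G1 stem cell markers ran from 1.27 to 2.26, fibroblast markers up to 1.645 and neural crest markers up to 1.725.

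Few promoters passed the test between ES and G1 in FOXD3-depleted cells. Of 15323 tested windows 1 rose in ES (0.00653%) and 4 fell (0.0261%), and the 5 windows lie at 3 loci. The locus that rose is the promoter of Tomm40, which codes for the pore of the protein import machinery of the mitochondrial outer membrane. The loci that fell are both on the X chromosome. One is shared by Smc1a, a subunit of the cohesin ring that holds sister chromatids together, and Ribc1, a protein of ciliary microtubules. The other covers a start of Morf4l2, a partner of a histone acetyltransferase complex. No tested region was called among 11010 (0.0%), and the smallest adjusted p was 0.274. The test was limma with Benjamini-Hochberg adjustment at 0.05, and unadjusted p lay under 0.05 for 976 windows (6.37%) and 806 regions (7.32%).

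At the Smc1a window (chromosome X, 152013779 to 152018778) the level was 3.18 in 4HT G1 and 1.12 in 4HT ES. It was 1.78 in 4HT LS, 1.57 in 4HT G2, and 1.85, 1.65, 1.77 and 1.91 in EtOH G1, ES, LS and G2. The 4HT G1 column is the highest of the 8 and the 4HT ES column the lowest, while the other 6 span a narrow range between them. The difference was -1.69 (SE 0.287, limma adjusted p 0.00821), and it was -0.05 in EtOH cells. The Smc1a call was lost on uncentred multiples (-1.50) and with 1 Mb bin medians removed (-1.24). It was also absent from the average over treatments (-0.87), which takes in the EtOH difference and is thus another quantity. The overlapping window of Ribc1, on the opposite strand, gave -1.72 and the same adjusted p. Inside these windows an accessible region of 694 bp (152015934 to 152016627) went from 4.35 to 1.22, and its neighbour of 403 bp from 3.47 to 1. Neither of these regions was called, with differences of -2.15 and -2.14 and an adjusted p of 0.565 each.

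Each gene named only its nearest window, so the called windows at Morf4l2 carry no gene name of their own. They cover a start of that gene and overlap each other. Their level was 4.03 and 3.86 in 4HT G1 and 1.53 in 4HT ES, and the differences were -1.58 and -1.52 (limma adjusted p 0.0188 and 0.0253). In EtOH cells the differences were -0.13 and -0.14. Both calls were lost under 5 alternatives. The window that took the name Morf4l2 (136741341 to 136746340) overlaps the called ones. It had a level of 2.68 in 4HT G1 and 1.49 in 4HT ES and did not pass the test (difference -1.03, adjusted p 0.460). The accessible region 46 bp from a Morf4l2 start, which lies inside the called windows, fell short of the threshold as well, with levels of 5.62 and 2.23.

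At the Tomm40 window (chromosome 7, 19713089 to 19718088), which also holds the start of the long non-coding RNA gene Gm38955, the level was 2.55 in 4HT G1 and 7.68 in 4HT ES. It was 5.52 and 4.78 in 4HT LS and G2, and 6.08, 4.69, 6.57 and 6.72 in EtOH G1, ES, LS and G2. The 4HT G1 column is the lowest of the 8 and stands apart from the rest. The difference was 1.45 (SE 0.282, limma adjusted p 0.0305), and -0.05 in EtOH cells. The call was lost under 8 of the alternatives run, with differences of 0.70 to 1.59. They include the average over treatments, which takes in the EtOH difference and is thus another quantity. The region over this promoter (19715251 to 19716236) had levels of 5.86 in 4HT G1 and 16.7 in 4HT ES, against 13.5 and 13 in EtOH, and was not called (difference 1.19, adjusted p 0.455). The upstream sequence of this promoter is shown because it is the locus that rose, and because CCAAT boxes, the sites of the NF-Y factor, are dense in it. Sequences here and below are from RefSeq in GRCm38.p6, the assembly of mm10, in lower case with motif matches on either strand in capitals.
Tomm40 promoter, chr7:19715443-19715679, minus strand: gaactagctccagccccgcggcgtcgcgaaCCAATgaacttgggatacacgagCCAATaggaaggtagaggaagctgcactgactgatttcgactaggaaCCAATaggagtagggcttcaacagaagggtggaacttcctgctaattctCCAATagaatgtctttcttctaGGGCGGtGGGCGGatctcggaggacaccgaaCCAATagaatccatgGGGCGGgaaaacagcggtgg
It holds 5 matches to CCAAT and 3 to the GC box GGGCGG, all on the gene's strand and none overlapping. Of 32851 tabulated promoters of 250 bases, 33.9% hold a CCAAT match, 0.213% hold at least 5, and 32.7% hold a GC box. A match is a string of letters and no proof of a bound factor. The 3374 tested windows with a CCAAT match in their promoter had a median difference of -0.0073 in 4HT cells, against 0.0008 for those without. The 5278 with a GC box had a median of 0.0003, against -0.0054 without.

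Whether these differences departed from those in control cells was tested by the added term of the same model. No window passed (0 of 15323, 0.0%), with 764 at an unadjusted p under 0.05 (4.99%), and no region (0.0%, 614 unadjusted, 5.58%). For Smc1a the 4HT difference minus the EtOH difference was -1.63 (SE 0.406, limma adjusted p 0.523), and for Tomm40 it was 1.5 (SE 0.399, adjusted p 0.523). In EtOH cells ES and G1 differed at no window (0.0%) by the same test, with 814 at an unadjusted p under 0.05 (5.31%), and at no region (656 unadjusted, 5.96%). The called differences are thus not shown to be particular to depleted cells. Leaving the LS columns out of the fit gave 15 called windows, leaving out the G2 columns gave 13, and removing the median of each 1 Mb bin gave 0.

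**Figure D1:**
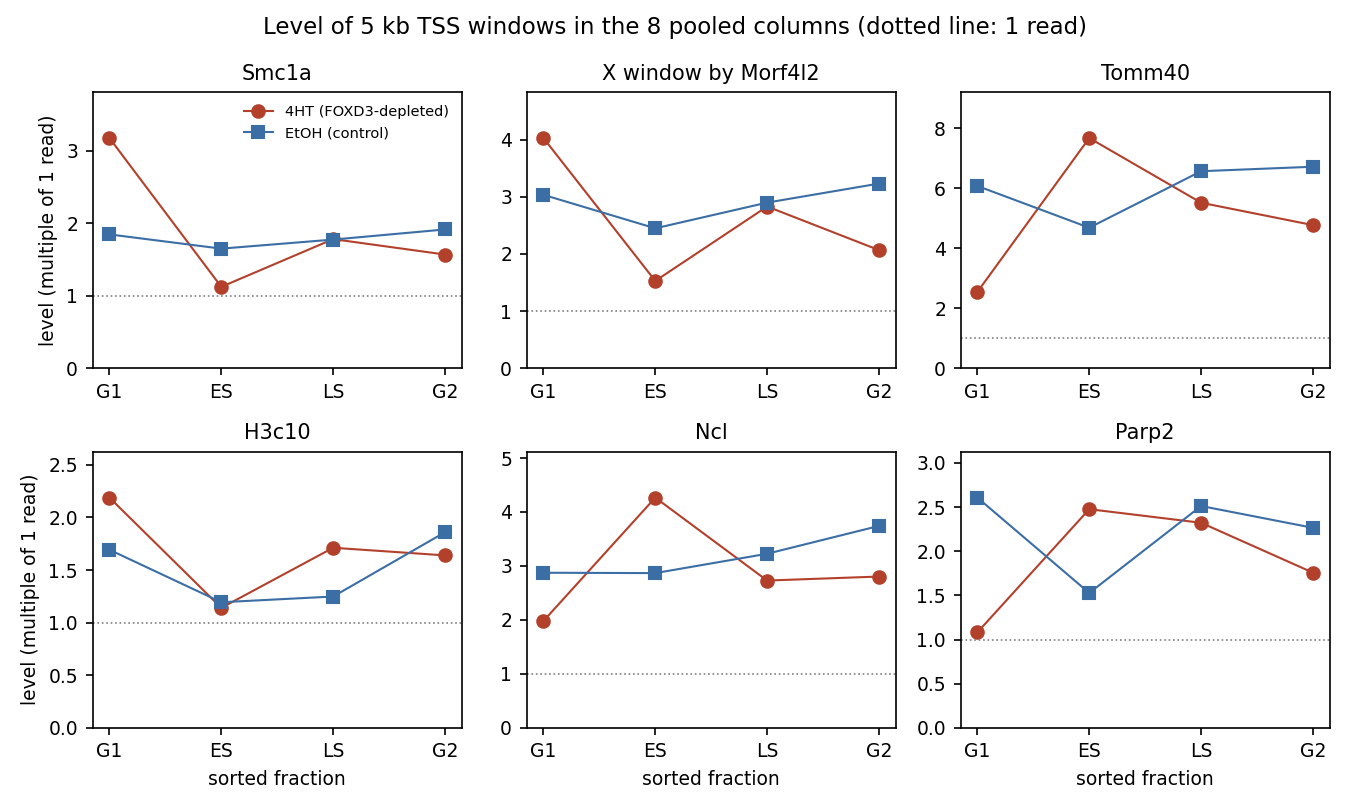
Level of 6 TSS windows (y axis, multiple of 1 read in the column) in the sorted fractions (x axis) of 4HT cells (circles) and EtOH cells (squares), 1 pooled column per point and no error bar. At Smc1a and at the window by Morf4l2 4HT G1 is the highest point and 4HT ES the lowest, and at Tomm40, Ncl and Parp2 4HT G1 is the lowest.

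**Figure D2:**
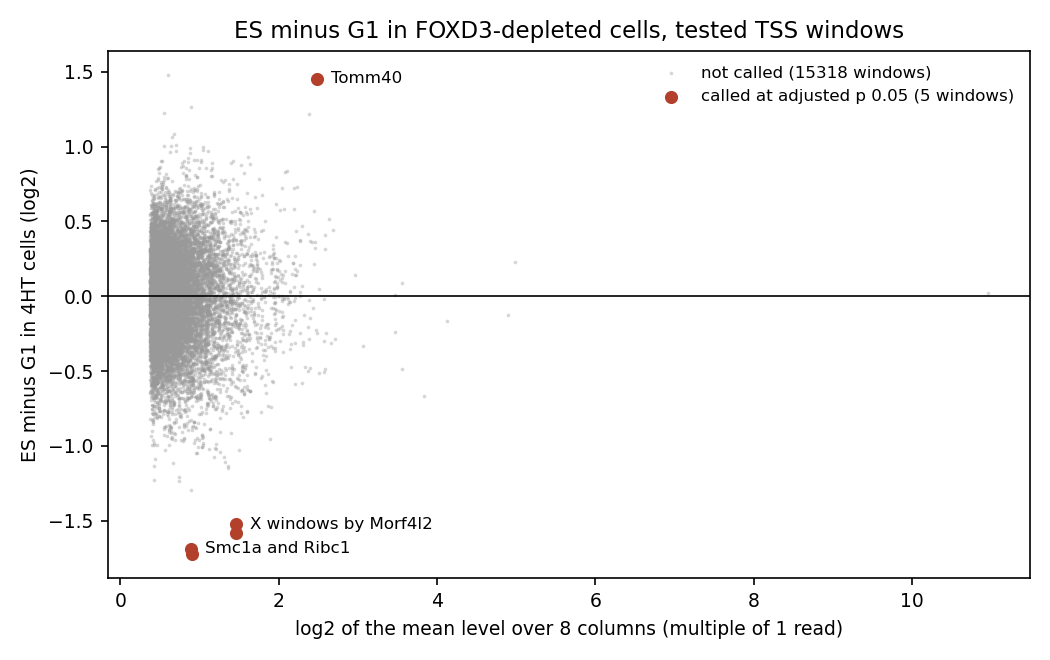
ES minus G1 in 4HT cells (y axis, log2) against the log2 of the mean level over the 8 columns (x axis) for 15323 tested windows, with the 5 called windows as large points. The called windows lie at -1.72 to -1.52 and at 1.45, beyond most of the cloud.

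Across all tested windows the differences were small and centred on 0. Their SD was 0.303, near the median standard error of 0.275, and 50.6% lay above 0. A difference of at least 0.5 was seen in 625 windows upward (4.08%) and 863 downward (5.63%), against 613 (4.0%) and 626 (4.09%) in EtOH cells. For regions the SD was 0.690 with a median standard error of 0.591, 49.4% lay above 0, and 22.6% and 22.9% lay at least 0.5 up and down (21.1% and 21.0% in EtOH). Over the 15323 windows the differences in 4HT and EtOH cells, which share no column, had a Pearson r of 0.073 (0.079 over the 11010 regions). Of the 1488 windows past 0.5 in 4HT cells 56.3% had the same sign in EtOH cells, against 52.6% of all windows.

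Among the 1795 windows with a mean level of at least 2 and a gene symbol that is not a predicted one, the 8 with the highest difference were led by Tomm40. Parp2, an ADP-ribose polymerase of the DNA damage response, and Rpph1, the RNA of RNase P that starts beside it on the other strand, followed at 1.0 and 0.97. Parp2 stood at 1.08 in 4HT G1 and 2.48 in 4HT ES, against 2.61 and 1.53 in EtOH, so that the treatments moved in opposite directions (adjusted p of the difference 0.523). Ncl, which codes for nucleolin, a protein of ribosomal RNA synthesis, went from 1.98 to 4.27 (difference 0.93, SE 0.296, limma adjusted p 0.526), and was 2.87 in both EtOH columns. The others were Zfp882 (0.91), Coq10b (0.89), Tmed1 (0.88) and Cfap36 (0.85). By level 4HT G1 was the lowest of the 8 columns in 7 of these 8 windows (6 after centring), 4HT ES was the highest in 4, and 3 had the same sign in EtOH cells. The windows were chosen for this difference, so low 4HT G1 and high 4HT ES levels follow largely from the choice. The windows of Parp2 and Rpph1 also overlap. None of the 8 windows but that of Tomm40 passed the test. The promoter of Ncl is shown as the most GC-rich of those printed.
Ncl promoter, chr1:86359456-86359705, minus strand: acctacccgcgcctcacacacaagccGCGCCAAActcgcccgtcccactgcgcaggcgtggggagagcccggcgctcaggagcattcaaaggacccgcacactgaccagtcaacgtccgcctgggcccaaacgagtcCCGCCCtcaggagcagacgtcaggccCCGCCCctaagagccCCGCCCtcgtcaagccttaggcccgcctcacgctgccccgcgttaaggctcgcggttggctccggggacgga
It has a GC content of 69.6% and holds 1 match to the E2F motif TTTGGCGC, which 0.417% of all promoters hold, and 3 GC boxes, all 4 on the opposite strand.

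The 8 windows with the lowest difference in this set had values of -1.15 to -1.01 and adjusted p of 0.338 to 0.526. Ints9, a subunit of the Integrator complex that cleaves nascent RNA, and Hmbox1, a homeobox protein of telomeric repeats, share a locus on chromosome 14 and stood at 3.23 in 4HT G1 and 1.66 and 1.67 in 4HT ES. Sfr1 went from 3.08 to 1.67 (difference -1.07), and was 2.67 and 2.55 in EtOH. Pik3r3, a regulatory subunit of phosphoinositide kinase, went from 3.55 to 2.01 (-1.02), Pdp1, a phosphatase of pyruvate dehydrogenase, from 2.63 to 1.43 (-1.08), and Nt5c3, a pyrimidine nucleotidase, from 2.72 to 1.55 (-1.01). Wwox, an oxidoreductase gene at a fragile site, differed alike in both treatments: 3.12 and 1.65 in 4HT (difference -1.11) and 3.72 and 1.66 in EtOH (-1.0). With ES minus G1 averaged over both treatments Wwox passed the test (-1.06, limma adjusted p 0.0256). By level 4HT G1 was the highest of the 8 columns in 4 of these 8 windows (7 after centring), 4HT ES was the lowest in 7, and in 5 the sign was the same in EtOH cells. Here too the places of the 4HT G1 and 4HT ES columns follow largely from the choice of windows, and those of Ints9 and Hmbox1 overlap. The part that the depth of 4HT G1 has in these differences was not tested.

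Of the 3480 regions with a mean level of at least 3, the 5 largest differences in each direction were of 4.07-fold to 7.61-fold and none passed the test. The region 66431 bp from the start of Grid1, a glutamate receptor gene (chromosome 14, 35649746 to 35649891), went from 7.09 in 4HT G1 to 1.22 in 4HT ES (difference -2.93, SE 0.627, limma adjusted p 0.455), and was 1.88 and 1.75 in EtOH. A region by Agbl5, a deglutamylase of tubulin (chromosome 5, 30887327 to 30887734), went from 5.21 to 1 (-2.75, SE 0.463, adjusted p 0.274), against 3.81 and 2.55 in EtOH. The next were near Vpreb2 (-2.51), Gmnc (-2.34) and Zfp956 (-2.27). Upward, the region 2581 bp from the start of the apolipoprotein gene Apoc1 (chromosome 7, 19686592 to 19687207) went from 1 to 7.13 (difference 2.45, SE 0.581, adjusted p 0.565) and from 1.11 to 2.90 in EtOH (1.58). It lies near Tomm40. Regions near Ano8 (2.23), Capza2 (2.09), Foxn2 (2.04) and Naa40 (2.02) followed. Of these, the region near Foxn2 differed by 1.52 in EtOH cells. At Apoc1, Foxn2 and Naa40 the level in 4HT G1 was exactly 1, and at Agbl5 and Vpreb2 that in 4HT ES. These differences thus start or end at the lowest level a read allows.

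No window of a replication list passed the test, and the list medians lay near 0. Of 15 tested windows of origin licensing, whose products load the replicative helicase, 8 lay above 0, and the median was 0.05, with Orc6 at 0.43. The median was -0.06 for origin firing (5 of 12 above 0, Recql4 -0.65 and Rif1 0.41) and 0.02 for fork enzymes (13 of 24, Rfc2 -0.70 and Timeless -0.46). Genes of nucleotide supply had a median of 0.15, with 7 of 11 above 0. Nme2, a nucleoside diphosphate kinase, stood at 1.15 in 4HT G1 and 2.27 in 4HT ES (0.80), and Dut, which removes dUTP, at 2.23 and 1.60 (-0.67). The S phase checkpoint list had a median of -0.05 (8 of 17), with Etaa1, an activator of the kinase ATR, at 0.96 and Atm at -0.89. None of the windows in any of the 16 lists passed the test between ES and G1, in a table where 0.0326% of all windows were called. As for all windows, about as many members lay above as below 0 in these lists.

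The lists of entry into S phase and of mitosis had medians of opposite sign, and no window of either was called. Regulators of entry into S phase had a median of -0.15, with 10 of 25 above 0. Myc, a growth regulator, went from 1.72 to 1.21 (-0.66), and E2f1, an activator of S phase genes, from 1.37 to 2.39 (0.61). Genes of G2 and mitosis had a median of 0.08, with 15 of 28 above 0. Ccnb2, a mitotic cyclin, stood at 1.06 in 4HT G1 and 1.88 in 4HT ES (0.66). Kif20b, a kinesin of cytokinesis, differed in both treatments, by 0.63 in 4HT and 0.92 in EtOH. With the median of each 1 Mb bin removed, the medians relative to all windows turned to 0.02 for the entry list and -0.01 for the mitosis list.

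Replication-dependent histone genes, which are transcribed in S phase from clusters on chromosomes 13 and 3, had the lowest median of the lists with at least 10 tested windows. Of 50 tested windows, out of 62 genes, 34 lay below 0 and 16 above, with a median of -0.19 against -0.07 in EtOH cells. None was called, 9 had an unadjusted p under 0.05 (6.37% of all windows did), and 11 windows were at least 0.5 lower and 0 at least 0.5 higher (5.63% and 4.08% of all windows). Neighbouring histone windows overlap, so they are not separate measurements. Merged into 22 loci, 14 lay below 0 in 4HT cells and 12 in EtOH cells, with medians of -0.19 and -0.05, and the 11 low windows fell into 4 loci. The median of the list stayed below that of all windows under the 11 alternatives run, from -0.03 with bin medians removed to -0.69 with the higher minimum, which left 4 windows.

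The lowest histone locus held H2ac13, H2bc13, H3c10 and H2bc14 on chromosome 13 (21713763 to 21724448), with a median of -0.94 in 4HT and -0.49 in EtOH. H3c10 (a histone H3 gene) stood at 2.19 in 4HT G1 and 1.14 in 4HT ES (difference -1.11, SE 0.273, limma adjusted p 0.245), and at 1.69 and 1.19 in EtOH. ES was thus the lowest fraction of H3c10 in both treatments. A region of 332 bp at H2ac13 went from 4.91 to 1.15 (-2.45, adjusted p 0.560), and from 2.44 to 1.44 in EtOH. The other loci were that of H3c2, H4c2, H4c1, H3c1 and H1f1 (-0.67 in 4HT, 0.26 in EtOH), that of H2bc4 and H2ac6 (-0.68, -0.10), and that of H3c15, H2ac19, H2ac18 and H3c14 (-0.56, 0.05). Histone genes of a family are close copies, and how reads that fit several of them were placed is not given in the sources used here. Npat, the coactivator of these genes, shares its promoter with Atm and stood at 2.90 in 4HT G1 and 1.80 in 4HT ES (-0.89). The H3c10 promoter is shown for the TATA box and the CCAAT boxes of such genes.
H3c10 promoter, chr13:21717378-21717627, plus strand: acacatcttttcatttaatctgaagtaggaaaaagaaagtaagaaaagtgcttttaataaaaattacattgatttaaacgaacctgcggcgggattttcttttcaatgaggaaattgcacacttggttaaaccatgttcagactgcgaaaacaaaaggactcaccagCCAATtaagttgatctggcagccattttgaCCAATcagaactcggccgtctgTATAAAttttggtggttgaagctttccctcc
It holds 1 match to TATAAA, which 12.4% of all promoters hold, and 2 to CCAAT, and its GC content is 37.6%.

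Windows of pluripotency genes lay on both sides of 0. Of 15 tested windows of naive pluripotency 8 lay above 0, with a median of 0.11 (0.03 in EtOH). Zfp42, a marker of naive cells, went from 1.37 to 2.54 (0.70) and by 0.46 in EtOH, and Sox2, a core factor, from 2.04 to 1.44 (-0.68) and by 0.17 in EtOH. Pou5f1 and Nanog stood at -0.05 and -0.03. The median of formative and primed genes was -0.13 (2 of 8 above 0, Etv4 -0.38) in 4HT and -0.18 in EtOH, and neural crest and neuroectoderm genes 0.06 (5 of 9, Sox1 -0.52). Foxd3 itself (window at chromosome 4, 99653650 to 99658649) stood at 1.65 in 4HT G1 and 1.54 in 4HT ES (difference -0.27, SE 0.268, limma adjusted p 0.925) and at 1.53 and 1.63 in EtOH (0.17). These levels do not check the depletion, since the removed part is not named. The other forkhead genes had a median of -0.07 with 4 of 10 above 0, among them Foxj2 at 0.63.

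Most of the remaining lists had medians near 0. Ribosomal protein genes had a median of 0.02 with 39 of 75 above 0, with Rpl11 at -0.92 (0.38 in EtOH) and Rpl27a at -0.87. Chromatin repressors and remodellers had a median of 0.05 with 11 of 20 above 0 (Suz12 0.42, Smarca4 -0.41), and histone supply genes 0.01 with 8 of 15 (Zfp473 0.44). Of 6 tested fibroblast markers 1 lay above 0, Vim at 0.64, and the median was -0.27 (-0.16 in EtOH), the furthest from 0 of the 16 lists and that with the fewest windows. The medians hardly varied with promoter sequence. Over 4 classes of promoter GC content, the medians lay between -0.01 and 0.01. Windows with the forkhead motif TGTTTAC within 250 bases before the start, 168 in number, had a median of 0.02, and the 75 with the E2F motif -0.03 (0.03 in EtOH).

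**Figure D3:**
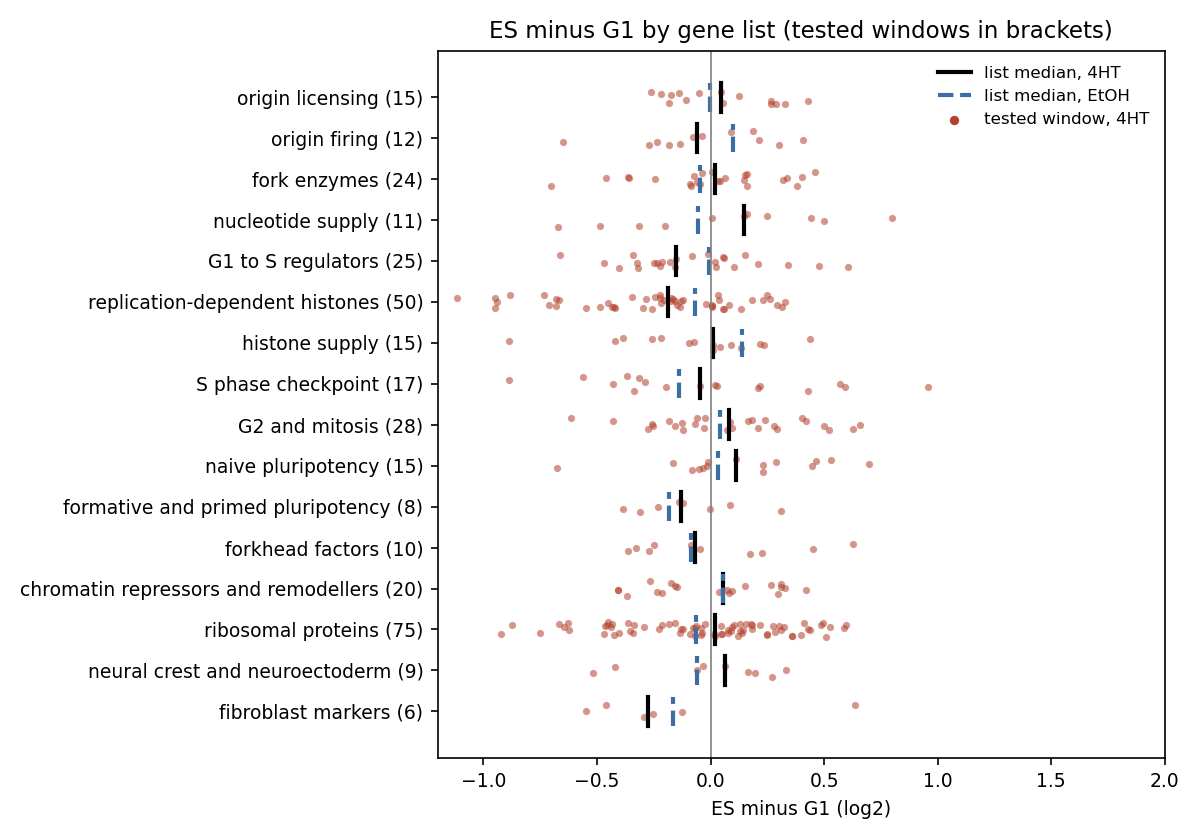
ES minus G1 (x axis, log2) of the tested windows of 16 gene lists (y axis, number of windows in brackets), 1 point per window in 4HT cells, with the list medians in 4HT (solid bars) and EtOH (dashed bars). The points scatter on both sides of 0 in each of the 16 lists, and the histone list has 11 points at or below -0.5 and none at or above 0.5.

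A difference of like size in both treatments was seen in where reads fell along the genome. In ES, regions in gene-dense 1 Mb bins held more reads relative to those in gene-poor bins than in G1. In 4HT cells 26433 regions were read in ES only and 15365 in G1 only, so ES held 63.2% of the regions read in 1 of the columns (exact 95% interval 62.8 to 63.7, counting error only). In EtOH cells, where ES was the shallower column, that share was 41.4%. The columns differ in depth, and its part in these shares was not tested. Reads per region were taken as minus the natural log of the share of regions without a read. The ratio of ES to G1 was then compared between parts of the genome. Over all regions this ratio was 1.28 in 4HT and 0.863 in EtOH, beside depth ratios of 1.44 and 0.841. It thus departed from the depth ratio, and the part of depth in the comparisons between parts of the genome was not tested.

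The genome was split into 4 classes of 1 Mb bins by their number of protein-coding genes. In 4HT cells the ES to G1 ratio was 1.18 in bins of 0 to 2 genes, 1.27 in bins of 3 to 5, 1.31 in bins of 6 to 11 and 1.33 in bins of 12 to 67. In EtOH cells the ratios were 0.803, 0.860, 0.866 and 0.891, in the same order. The ratio of LS to G1 had its highest value in the second class in both treatments (1.51 in 4HT, 0.908 in EtOH) and its lowest in the gene-dense class (1.41 and 0.841). The G2 to G1 ratio ran from 1.19 to 1.22 in 4HT and from 1.09 to 1.05 in EtOH. Within each column, the gene-dense class held 1.77 times the reads per region of the gene-poor class in 4HT ES and 1.79 times in EtOH ES. The other 6 columns gave 1.54 to 1.62, with 4HT G1 at 1.57 and EtOH G1 at 1.61. The ES value was 1.12 times that of G1 in 4HT cells and 1.11 times in EtOH cells. Over larger units the ES to G1 ratio followed gene density weakly. Its Spearman rho with gene number over 478 segments of 5 Mb was 0.15 in 4HT and 0.14 in EtOH. Over 20 chromosomes (1 to 19 and X) the rho with genes per Mb was 0.24 and 0.03. Chromosome 19, with 11.5 genes per Mb, had the lowest ratio relative to the genome in both treatments (0.948 and 0.931). These values are a description with no test, since the measure was chosen after the data were seen.

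**Figure D4:**
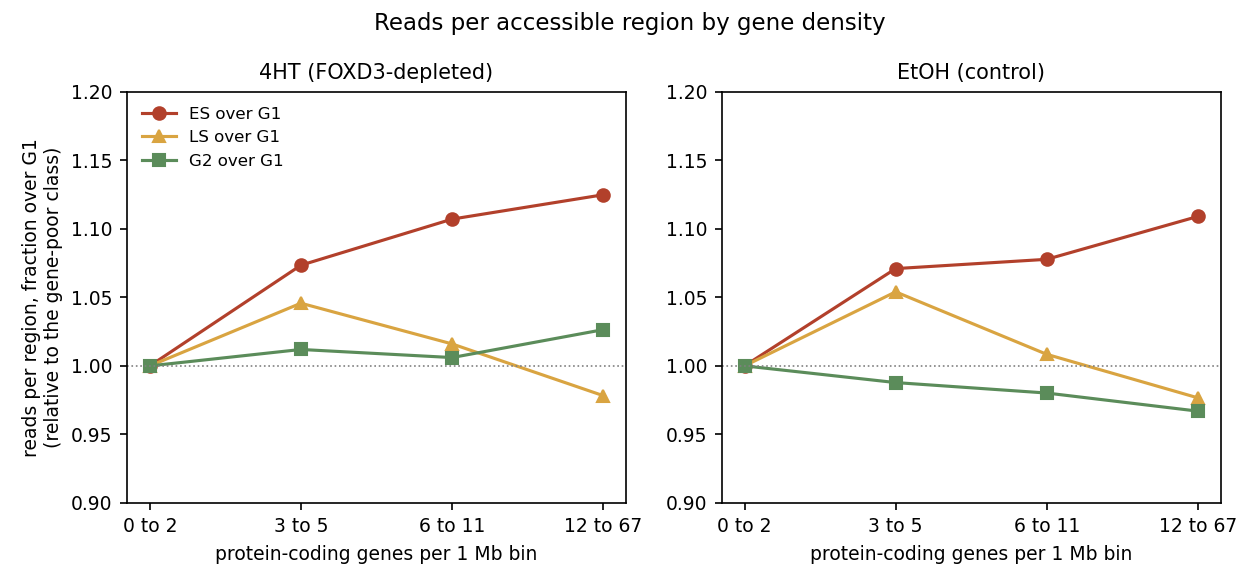
Reads per region in ES, LS and G2 over G1 (y axis, relative to the gene-poor class) in 4 classes of 1 Mb bins by number of protein-coding genes (x axis), in 4HT cells (left) and EtOH cells (right), 1 pooled column per fraction. The ES line ends at 1.12 in 4HT and at 1.11 in EtOH, above LS and G2 in both.

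By distance to the nearest TSS, the classes beyond 1 kb stood in the same order in 4HT and EtOH cells, and the class within 1 kb did not. In 4HT cells the ES to G1 ratio was 1.25 within 1 kb of a TSS, 1.33 from 1 to 10 kb, 1.28 from 10 to 100 kb and 1.16 beyond 100 kb. In EtOH cells it was 0.891, 0.872, 0.852 and 0.783. The regions beyond 100 kb, 6969 in number, were thus the lowest in both treatments. The levels of tested intervals, which need a read in every column, hardly followed gene density. The median of 1 Mb bins was higher in the gene-dense than in the gene-poor class by 0.01 for windows and 0.08 for regions in 4HT cells, and by -0.00 for both in EtOH cells.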

How the data were processed

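ATAC-seq coverage was analysed in 8 pooled columns of 2 libraries each. The authors deposited a coverage signal for regions and TSS windows; mm10, featureCounts and DESeq2 are listed in the submitters' processing notes without version or use. The coverage program and how libraries were pooled are not given in the sources used here. The smallest signal of a column was read as 1 read, and all signals were divided by it.

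Intervals were tested if read in all 8 columns with a mean level of at least 1.3 (windows) or 2 (regions). The log2 levels, with no pseudocount, were centred by cyclic loess. limma 3.58.1 (R 4.3.3; trend, robust) was fitted with treatment, fraction and 1 term for the ES minus G1 difference of 4HT against EtOH. The model takes the treatment effect as equal in LS, in G2 and in the mean of G1 and ES. The 2 residual degrees of freedom come from departures from this, so p-values measure the spread among pooled columns, not cultures. On simulated data for 4HT ES against G1, 45% of windows changed by log2 1 and 99% changed by log2 2 were recovered, and 2% and 31% of regions. In each simulation 100 intervals were changed by each size, and 4 unchanged windows and 2 unchanged regions were called. The simulated noise was equal in all 8 columns, whereas the real columns differ in depth, so these shares may not hold for the data.

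Windows were named from RefSeq TSSs within 500 bp of a point 150 bp from the centre, and each gene named only its nearest window. Named intervals were those called, the 8 windows (mean level at least 2, no predicted symbol) and 5 regions (at least 3) furthest in each direction, the 2 furthest members of each list, and Foxd3; others, such as neighbours of a called window, Pou5f1, Nanog and list members at named loci, were chosen after their values were seen. Members and lists were chosen with earlier results of these data known. Alternatives were another pseudocount, minimum or centring, removal of 1 Mb bin medians, and fits without LS, without G2 or averaged over treatments. The gene-density measure, its variants, 5 Mb segments and promoter features were added after seeing the data.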

Additional observations from a re-analysis of the deposited data

How the results depend on the processing

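The number of windows called between 4HT ES and 4HT G1 was 5 and moved with the settings. It was 2 with no minimum, 0 with the higher minimum, 1 on uncentred multiples and 0 with 1 Mb bin medians removed (smallest adjusted p 0.871). It was 15 without LS, 13 without G2 and 3 with both treatments averaged. The higher minimum, a mean level of 2, left the Smc1a and Ribc1 windows (mean levels 1.85 and 1.88) untested. The average over treatments takes in the EtOH difference, so a call lost there does not bear on the 4HT difference alone. Tomm40 lost its call under 8 alternatives, with differences of 0.70 to 1.59. The Smc1a window lost it on uncentred multiples (-1.50), with bin medians removed (-1.24) and averaged over treatments (-0.87), and the windows near Morf4l2 lost it under 5. For the difference between 4HT and EtOH, 0 windows became 1 with a pseudocount of 0.1, 3 as deposited, 1 with column medians subtracted, and 2 without LS and 2 without G2. For regions 0 became 1 with no minimum, 1 with the higher minimum (Agbl5, -2.76, adjusted p 0.0449), 4 without LS and 2 averaged over treatments. The gene-density ratio of 1.12 became 1.15 for regions more than 1 kb from a TSS, 1.16 for narrow regions and 1.09 in bins of 2 Mb. As deposited, the median of all windows shifted by -0.36 (0.17 on uncentred multiples), and Orc1 turned from 0.33 to -0.028. Of 662 values of named intervals under alternatives, 633 kept direction and side of the threshold. Most of these intervals were not called to begin with, so this count says little about the calls. The cause of these changes was not tested. No paired analysis was possible because the pooled columns carry no replicate number, and no library could be left out. Depth limits the regions most: at 6.78 M reads in 4HT G1, 32.8% had no read.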

Other observations

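In 478 segments of 5 Mb with at least 100 regions, the ES to G1 ratio of reads per region in 4HT cells, relative to the genome, ran from 0.582 to 1.38. Chromosome 2 from 175000001 to 180000000 was lowest, at 0.582 in 4HT and 0.679 in EtOH, although it holds 40 protein-coding genes against a median of 33. There 76.2% of the 122 regions were read in 4HT G1 and 65.6% in the deeper 4HT ES. A segment of chromosome 5 (80000001 to 85000000), with 4 genes, stood at 0.664 and 0.683. By contrast chromosome 12 from 15000001 to 20000000 stood at 0.665 in 4HT and 1.36 in EtOH. In 4HT cells the LS to G1 and G2 to G1 ratios of these segments, relative to the genome, were low as well. They were 0.587 and 0.619 on chromosome 2, 0.675 and 0.741 on chromosome 5, and 0.722 and 0.640 on chromosome 12. In EtOH cells they were 0.590 and 0.913 on chromosome 2, 0.749 and 0.939 on chromosome 5, and above 1 on chromosome 12. In 4HT cells these ratios share G1 as their divisor, and the segments were chosen for a low ES to G1 ratio. A high G1 value would lower all of these ratios, so they do not show in which fraction the difference lies. Over the 478 segments the ES to G1 ratios of 4HT and EtOH cells had a Pearson r of 0.219 and a Spearman rho of 0.231. These values are a description of segments that share libraries within a treatment. Of the 20 highest segments in 4HT 9 were above 1 in EtOH, and of the 20 lowest 13 were below 1, where 50% of all segments were above 1 in EtOH.

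The windows in which 4HT and EtOH cells differed most in ES minus G1 were not called. Gm16440 (chromosome 14, 6387970 to 6392969) came closest, at -0.75 in 4HT and 1.38 in EtOH (limma adjusted p of the difference 0.0561), with levels of 1.53 and 1 in 4HT G1 and ES and 1 and 2.51 in EtOH. Uimc1, a ubiquitin-binding protein of the DNA damage response, stood at -0.91 and 1.01 (adjusted p 0.289). These windows were chosen after their values were seen.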
